A study of Mus musculus with 34 samples.

Results

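The genes described here are 40 enzymes, carriers and regulators of pyruvate, tricarboxylic acid (TCA) cycle and branched-chain amino acid oxidation in mouse skeletal muscle. They were taken by name from the table of counts, which lists 46071 genes, and all 40 passed the filter on low counts that left 13646 genes for testing. RNA came from powdered quadriceps mixed with gastrocnemius of male mice of a mixed C57Blk6, C57Blk6J and 129 background, and each of the 34 libraries is a separate sample. The insulin receptor is deleted in muscle of MIRKO mice (n = 4), the IGF-1 receptor in MIGF1RKO mice (n = 5) and both in MIGIRKO mice (n = 6), and QKO mice (n = 7) carry deletions of both receptors and of FoxO1, FoxO3 and FoxO4. Their references are floxed mice without recombination: IRlox (n = 3) for MIRKO, IGFRlox (n = 4) for MIGF1RKO, IRIGFRlox (n = 3) for MIGIRKO and Qlox (n = 2) for QKO. Cre was driven by the skeletal actin promoter Acta1 in MIRKO, MIGIRKO and QKO, so that deletion is directed to muscle fibers and the other cells of the muscle keep the genes; the driver of MIGF1RKO is not given in the sources used here, and neither is the age of the mice. Each line was a colony of its own with floxed littermates as controls. At Nnt, a mitochondrial transhydrogenase gene that differs between C57Bl6 substrains, MIGIRKO and IRIGFRlox mice were heterozygous, while MIRKO, IRlox, QKO and Qlox were a mix of homozygous and heterozygous mice.

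Pyruvate made by glycolysis enters mitochondria through the carrier of Mpc1 and Mpc2, and the pyruvate dehydrogenase complex turns it into acetyl-CoA, a step that Pdk kinases turn off and Pdp phosphatases turn on. Acetyl-CoA is burned in the TCA cycle, which hands its electrons to the respiratory chain. Leucine, valine and isoleucine are first transaminated by Bcat2 and then decarboxylated by the branched-chain ketoacid dehydrogenase (BCKDH), which Bckdk inhibits and Ppm1k activates, after which each amino acid has a branch of its own; skeletal muscle is a main site of the transamination. FoxO proteins are transcription factors that insulin and IGF-1 signalling keeps out of the nucleus.

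Values are in CPM, a gene's counts brought to a common library size after each library total was multiplied by a scaling factor, unless another scale is named. Changes are log2 values of a knockout group over its own floxed group with their standard error (SE), from edgeR's quasi-likelihood test, and a gene is called when its Benjamini-Hochberg adjusted p over all 13646 genes is under 0.05. Total counts ran from 1499025 to 7581198 per library. Insr fell in all 3 groups in which it was targeted, by 1.83 in MIRKO, 1.68 in MIGIRKO and 1.99 in QKO on the log2 scale. Igf1r fell by 1.09 in QKO (adjusted p = 0.0267), while its log2 change was -0.75 in MIGF1RKO (adjusted p = 0.103) and 0.00 in MIGIRKO (adjusted p = 0.993), so whole-gene counts do not show this deletion in MIGIRKO. In QKO, Foxo1 fell by 2.98 and Foxo4 by 4.57, and Foxo3 had a log2 change of 0.29 (adjusted p = 0.71). The library labelled MIRKO 4 was closest to MIGIRKO 3 over all genes (r = 0.981) and the library labelled MIGIRKO 6 to MIRKO 3 (r = 0.973). Each was thus closer to a library of the other genotype than to any of its own. The same held for other libraries, among them MIRKO 1 and MIRKO 3 (closest to MIGIRKO 6), MIRKO 2 (to MIGF1RKO 4) and MIGIRKO 1 and MIGIRKO 3 (to MIRKO 4). Whether the labels of MIRKO 4 and MIGIRKO 6 were exchanged was not tested. They are used as given, and counts without both are 31 in MIGIRKO (29 with them), 0 in MIRKO (4 with them), 13 for QKO minus MIGIRKO (10 with them) and 18 for MIGIRKO minus MIGF1RKO (15 with them). QKO 6 had the lowest mean correlation with its own group (r = 0.919), and QKO 5 was closest to Qlox 2 (r = 0.959). Muscle fiber markers were abundant in every group, with 10 markers together at 71600 CPM or more in each library.

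In the 12 floxed libraries the 40 genes spanned a wide range of levels, given here as CPM per kilobase of exon to allow for gene length. The length used is that of all annotated exons of a gene merged, from 1298 bases for Hsd17b10 to 10952 for Mccc1. It can exceed the length of the RNA present in muscle, so the order of genes also depends on the annotation. Ogdh, the E1 subunit of the 2-oxoglutarate dehydrogenase, was highest at 256.1 ± 32.5 CPM per kilobase (SD, n = 12). Sucla2, the subunit that makes succinyl-CoA ligase use ADP, followed at 215.8 ± 49.9, citrate synthase (Cs) at 204.2 ± 16.2, Idh3a at 190.2 ± 25.6 and Pdk2 at 180.6 ± 25.9 CPM per kilobase. Neighbours in this order overlapped in their ranges, so their rank is not set beyond the spread between libraries. Suclg2, the subunit for GDP, reached 10.6 ± 1.1 CPM per kilobase and did not overlap with Sucla2 in any floxed library. The lowest were Ppm1k at 6.46 ± 1.32, Hibch at 6.27 ± 0.95, Mccc1 at 5.03 ± 1.01 and Auh at 2.13 ± 0.53 CPM per kilobase, and among them Ppm1k, Hibch and Mccc1 also overlapped in range. On this scale the 10 highest genes all belong to the pyruvate, TCA or ketone steps, with Dld shared by the branched-chain complex. The lowest 8 other than Suclg2 all belong to branched-chain oxidation.

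**Figure D1:**
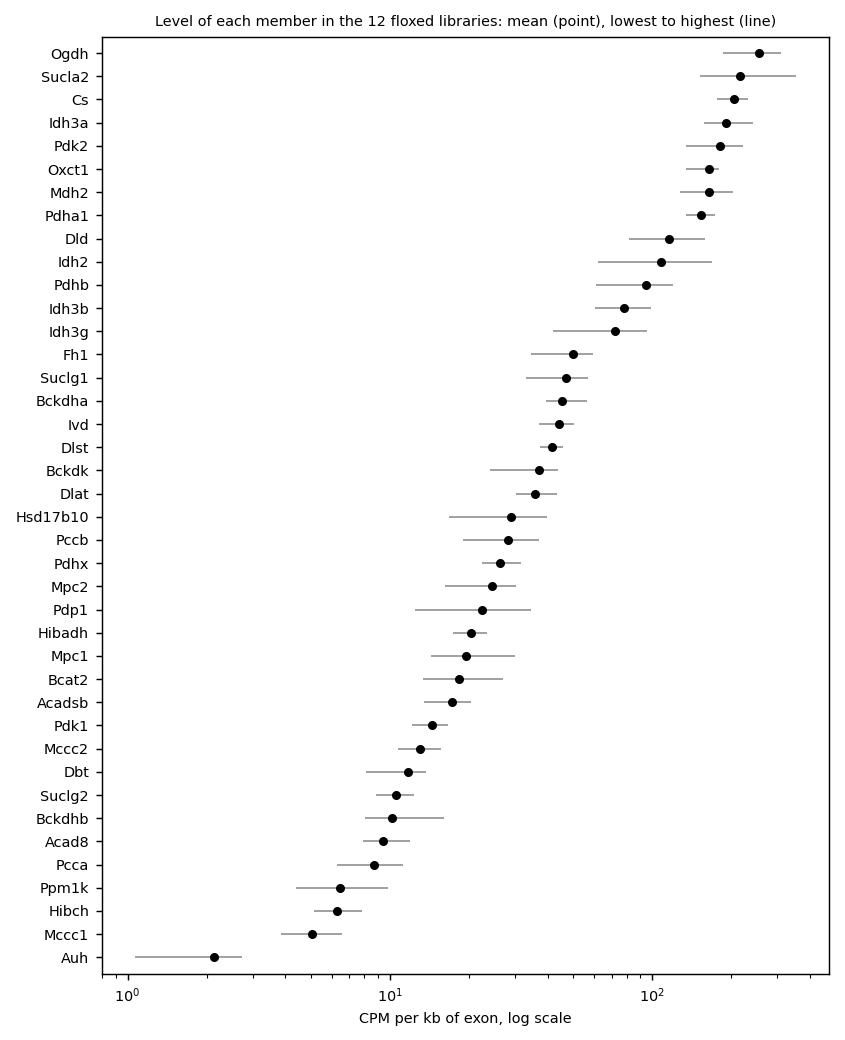
Level of each of the 40 genes in the 12 floxed libraries, in CPM per kilobase of exon on a log axis, with the mean and the range over libraries. Ogdh stands highest at 256.1 and Auh lowest at 2.13 CPM per kilobase, and neighbouring genes overlap in range apart from Auh.

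The question put to these genes was whether losing the insulin receptor, the IGF-1 receptor or both changes their RNA, and whether the added loss of FoxO factors alters that. Of the 40 genes, 29 fell in MIGIRKO and 0 rose, while 16.7% of all tested genes were called lower and 17.0% called higher there. In MIRKO 4 of 40 fell and 0 rose, against 0.865% called lower and 0.381% called higher among all genes. In MIGF1RKO 0 of 40 were called, where 0.352% of all genes were lower and 0.264% higher, and in QKO 0 of 40 were called, where 0.454% were lower and 0.0513% higher. The median log2 change of the 40 was -0.63 in MIGIRKO, -0.43 in MIRKO, -0.00 in MIGF1RKO and -0.08 in QKO, beside medians over all genes of 0.04 in MIGIRKO, 0.03 in MIRKO, -0.00 in MIGF1RKO and 0.04 in QKO. In whole muscle, fewer cells of a type and less RNA per cell cannot be told apart.

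**Figure D2:**
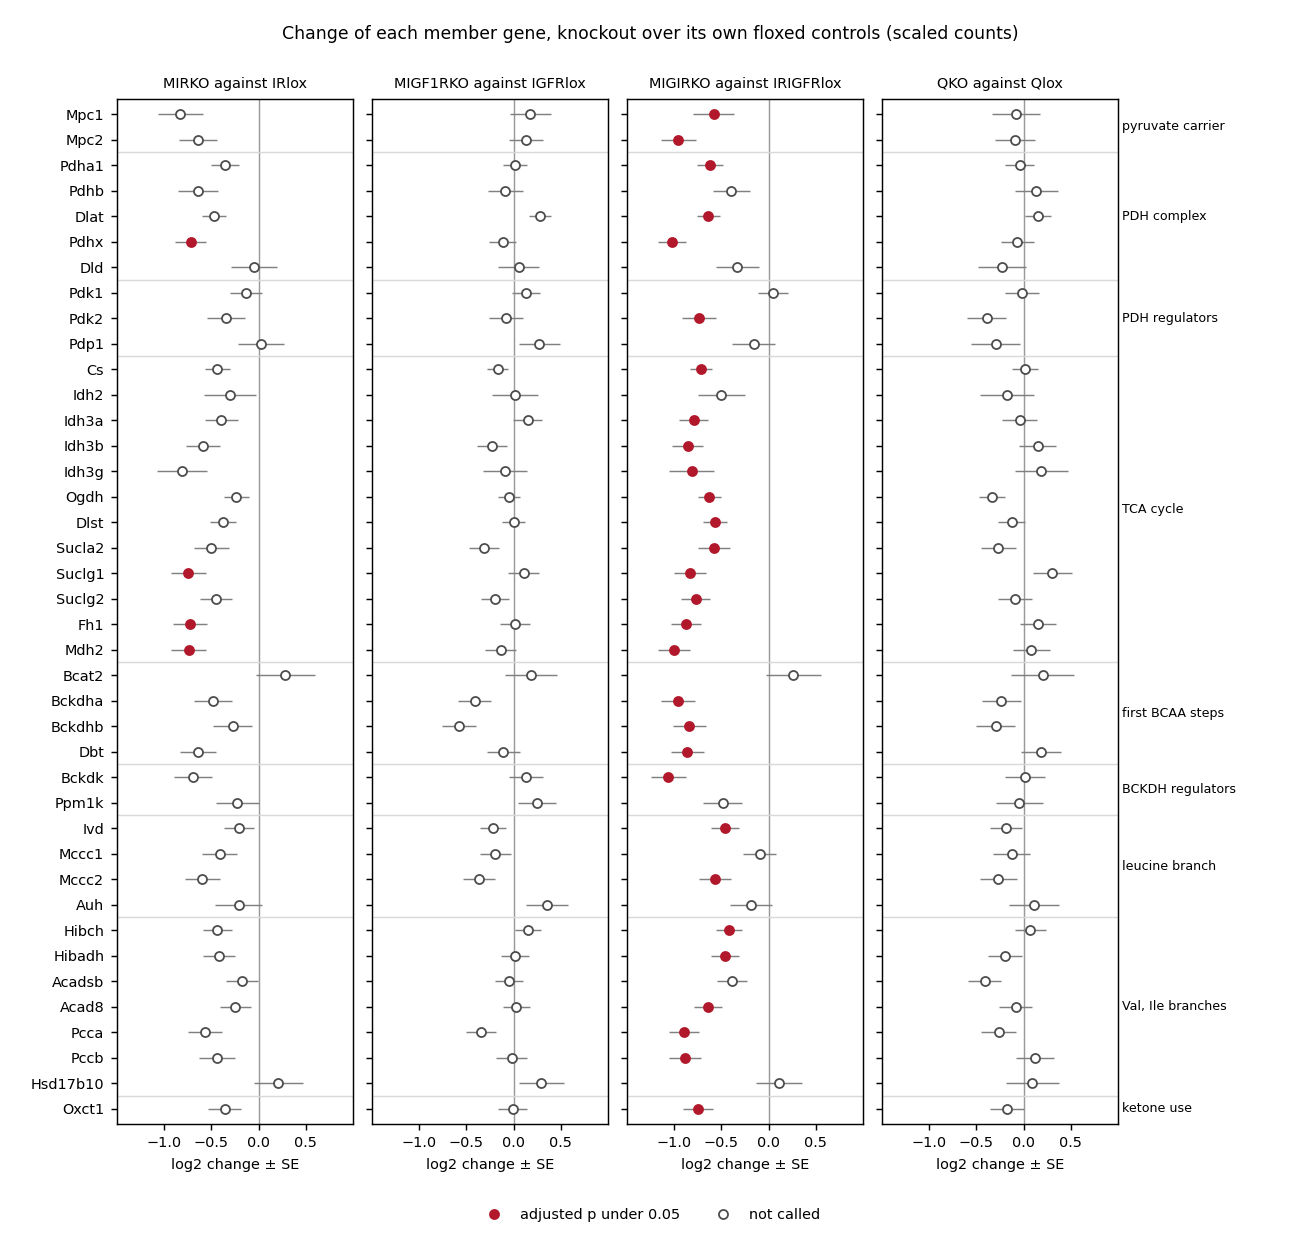
Log2 change of each of the 40 genes in the 4 knockout groups against their own floxed groups, with its SE; filled red points are called. In MIGIRKO 29 points are called and lie below 0, in MIRKO 4, and in MIGF1RKO and QKO none.

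In MIGIRKO muscle the fall reached nearly every step. It took in both carrier subunits, 3 of 5 genes of the pyruvate dehydrogenase complex, 11 of 12 TCA genes, 3 of 4 genes of the first branched-chain steps, 2 of 4 leucine genes, 5 of 7 valine and isoleucine genes and Oxct1. All MIGIRKO libraries lay below all IRIGFRlox libraries for 27 of the 40 genes, against 14.8% of all tested genes. The called genes fell by 0.42 (Hibch) to 1.06 (Bckdk) on the log2 scale.

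Of the carrier, Mpc2 (ENSMUSG00000026568, chr1:165460637-165481214, GRCm38) had 76.4, 93.3 and 107.0 CPM in the lowest, median and highest MIGIRKO library, against 166.8, 154.0 and 221.4 CPM in the 3 IRIGFRlox libraries. Every MIGIRKO library was below every IRIGFRlox library, and Mpc2 fell by 0.96 ± 0.18 (adjusted p = 0.000205). Its partner Mpc1 (chr17:8282904-8297661) had 20.5, 27.5 and 38.4 CPM in the lowest, median and highest MIGIRKO library, against 45.03, 31.8 and 48.8 CPM in IRIGFRlox. These groups overlapped, and Mpc1 fell by 0.58 ± 0.22 (adjusted p = 0.0379).

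The pyruvate dehydrogenase complex fell in its E3-binding protein, its E2 core and the alpha subunit of E1. Pdhx, the E3-binding protein (ENSMUSG00000010914, chr2:103021075-103073513), had 43.2, 48.4 and 60.9 CPM in the lowest, median and highest MIGIRKO library, against 88.2, 102.7 and 110.4 CPM in IRIGFRlox. It fell by 1.02 ± 0.15 (adjusted p = 5.31e-06), the smallest adjusted p of the 40 genes in any knockout comparison. Dlat, the E2 subunit that forms the core (chr9:50634633-50659780), had 103.8, 115.6 and 135.1 CPM in the lowest, median and highest MIGIRKO library, against 148.2, 191.7 and 211.3 CPM in IRIGFRlox. The groups did not overlap for Dlat, which fell by 0.64 ± 0.12 (adjusted p = 0.000133). Pdha1, the X-linked alpha subunit of E1, had 362.4, 371.3 and 448.9 CPM in the lowest, median and highest MIGIRKO library, against 617.1, 543.0 and 638.2 CPM in IRIGFRlox, and fell by 0.62 ± 0.13 (adjusted p = 0.000641). Pdhb, the beta subunit of E1, had a log2 change of -0.39 ± 0.20 (adjusted p = 0.119) and Dld, the E3 subunit shared with the 2-oxoglutarate and branched-chain complexes, -0.33 ± 0.23 (adjusted p = 0.261). Both were lower on average in MIGIRKO without passing the test.

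Of the regulators of that complex, Pdk2, a kinase that inhibits it, had 275.3, 356.6 and 518.8 CPM in the lowest, median and highest MIGIRKO library, against 565.7, 699.7 and 575.8 CPM in IRIGFRlox. It fell by 0.74 ± 0.18 (adjusted p = 0.00227), with no overlap between the groups. Pdk1, another kinase, had a log2 change of 0.05 ± 0.16 (adjusted p = 0.852) and the phosphatase Pdp1 -0.16 ± 0.23 (adjusted p = 0.621). Neither of these differed beyond the spread between libraries.

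Within the TCA cycle all genes but Idh2 fell. Cs, which joins acetyl-CoA to oxaloacetate (ENSMUSG00000005683, chr10:128337734-128362479), had 710.1, 780.0 and 875.0 CPM in the lowest, median and highest MIGIRKO library, against 1221, 1343 and 1279 CPM in IRIGFRlox. It fell by 0.71 ± 0.12 (adjusted p = 2.71e-05), and the groups were far apart relative to their ranges. Mdh2, which regenerates oxaloacetate from malate (ENSMUSG00000019179, chr5:135778480-135790398), had 246.9, 292.7 and 346.3 CPM in the lowest, median and highest MIGIRKO library, against 483.1, 702.9 and 600.4 CPM in IRIGFRlox. Mdh2 fell by 1.00 ± 0.17 (adjusted p = 3.81e-05), the most of the TCA genes. Fh1, the fumarase that makes malate (chr1:175600374-175625635), had 82.1, 104.5 and 118.1 CPM in the lowest, median and highest MIGIRKO library, against 168.2, 194.8 and 194.0 CPM in IRIGFRlox. Fh1 fell by 0.87 ± 0.16 (adjusted p = 0.000117). The 3 subunits of the NAD-dependent isocitrate dehydrogenase fell by 0.79 (Idh3a), 0.86 (Idh3b) and 0.81 (Idh3g), with Idh3a at 449.3 to 561.4 CPM in MIGIRKO and 795.3 to 991.8 CPM in IRIGFRlox. Idh2, the NADP-dependent enzyme of the same step, had a log2 change of -0.50 ± 0.25 (adjusted p = 0.122). The succinyl-CoA ligase fell in its common subunit Suclg1 by 0.83, in Sucla2 by 0.58 and in Suclg2 by 0.77. Sucla2 ran from 435.8 to 522.6 CPM in MIGIRKO and from 604.2 to 824.5 CPM in IRIGFRlox, and Suclg2 from 25.1 to 37.5 CPM in MIGIRKO and from 46.7 to 54.95 CPM in IRIGFRlox. The 2-oxoglutarate dehydrogenase fell in Ogdh by 0.63 and in its E2 subunit Dlst by 0.57, with Ogdh at 791.3 to 1001 CPM in MIGIRKO and 1330 to 1487 CPM in IRIGFRlox. These TCA genes did not overlap between the groups.

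**Figure D3:**
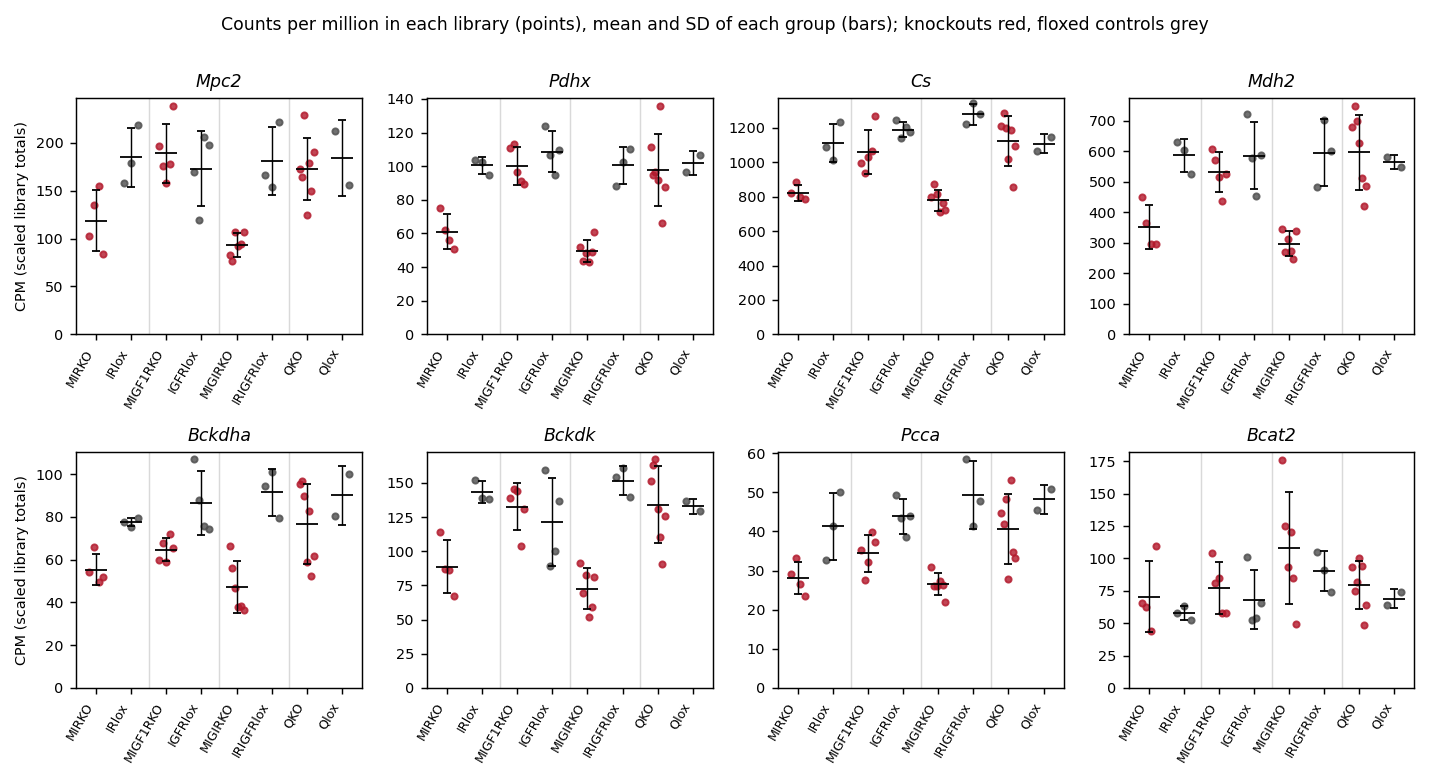
CPM of Mpc2, Pdhx, Cs, Mdh2, Bckdha, Bckdk, Pcca and Bcat2 in each library of the 8 groups, with the group mean and SD. For all but Bcat2 the MIGIRKO libraries lie below the IRIGFRlox libraries, and the QKO libraries overlap with the Qlox libraries.

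The first branched-chain steps fell in all 3 genes that are particular to the BCKDH complex and not in the transaminase. Bckdha, the alpha subunit of its E1 (ENSMUSG00000060376, chr7:25629946-25658981), had 36.6, 42.5 and 66.6 CPM in the lowest, median and highest MIGIRKO library, against 94.3, 100.8 and 79.35 CPM in IRIGFRlox. It fell by 0.96 ± 0.18 (adjusted p = 0.000134); 1171 bases of its exons overlap B3gnt8 on the opposite strand, and the strand setting of the counting is not given in the sources used here. Bckdhb, the beta subunit, had 10.7, 12.9 and 14.2 CPM in the lowest, median and highest MIGIRKO library, against 29.0, 16.45 and 22.0 CPM in IRIGFRlox, and fell by 0.84 ± 0.18 (adjusted p = 0.000534). Dbt, the E2 core, had 18.0, 21.1 and 33.0 CPM in the lowest, median and highest MIGIRKO library, against 44.4, 39.0 and 46.0 CPM in IRIGFRlox, and fell by 0.86 ± 0.17 (adjusted p = 0.000339). None of these 3 overlapped between the groups. Bcat2, the mitochondrial transaminase, had 49.3, 107.0 and 175.8 CPM in the lowest, median and highest MIGIRKO library, against 105.0, 91.1 and 74.0 CPM in IRIGFRlox. Its MIGIRKO libraries lay on both sides of the IRIGFRlox range (log2 change 0.26 ± 0.29, adjusted p = 0.508).

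The kinase that inhibits BCKDH fell as well. Bckdk (ENSMUSG00000030802, chr7:127904082-127910221) had 52.1, 75.5 and 91.3 CPM in the lowest, median and highest MIGIRKO library, against 154.0, 160.9 and 139.9 CPM in IRIGFRlox. It fell by 1.06 ± 0.18 (adjusted p = 5.31e-05), the most of the 40 genes. Ppm1k, the phosphatase that activates BCKDH, had 18.9, 29.8 and 42.5 CPM in the lowest, median and highest MIGIRKO library, against 26.4, 37.9 and 59.5 CPM in IRIGFRlox. Its groups overlapped (log2 change -0.48 ± 0.21, adjusted p = 0.0683).

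In the leucine branch Ivd, which dehydrogenates isovaleryl-CoA, had 149.3, 193.3 and 203.8 CPM in the lowest, median and highest MIGIRKO library, against 273.4, 239.2 and 243.0 CPM in IRIGFRlox. It fell by 0.46 ± 0.15 (adjusted p = 0.015) without overlap. Mccc2, the beta subunit of methylcrotonyl-CoA carboxylase, had 19.0, 24.7 and 37.0 CPM in the lowest, median and highest MIGIRKO library, against 44.0, 31.8 and 37.4 CPM in IRIGFRlox, and fell by 0.57 ± 0.17 (adjusted p = 0.00961) with overlap. The alpha subunit of the same enzyme, Mccc1, had 37.7, 44.4 and 52.8 CPM in the lowest, median and highest MIGIRKO library, against 47.8, 44.96 and 48.1 CPM in IRIGFRlox. Its log2 change was -0.09 ± 0.17 (adjusted p = 0.712), and that of Auh, the hydratase after the carboxylase, -0.18 ± 0.22 (adjusted p = 0.557). The leucine branch was thus called in Ivd and Mccc2 and not in Mccc1 and Auh.

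Valine and isoleucine end in propionyl-CoA, whose carboxylase fell in both subunits. Pcca (ENSMUSG00000041650, chr14:122534324-122891100) had 22.1, 26.3 and 30.8 CPM in the lowest, median and highest MIGIRKO library, against 58.6, 41.5 and 47.7 CPM in IRIGFRlox, and fell by 0.90 ± 0.16 (adjusted p = 7.95e-05). Pccb (chr9:100982032-101034898) had 42.1, 51.1 and 64.0 CPM in the lowest, median and highest MIGIRKO library, against 102.6, 94.3 and 93.5 CPM in IRIGFRlox, and fell by 0.89 ± 0.17 (adjusted p = 0.000196). Neither subunit overlapped between the groups. Acad8, the isobutyryl-CoA dehydrogenase of valine, had 24.8, 27.5 and 31.9 CPM in the lowest, median and highest MIGIRKO library, against 45.8, 49.4 and 36.8 CPM in IRIGFRlox, and fell by 0.64 ± 0.15 (adjusted p = 0.00109). The later valine enzymes Hibch and Hibadh fell by 0.42 and 0.46, the smallest called changes together with Ivd. Acadsb, which acts on isoleucine, had a log2 change of -0.39 ± 0.16 (adjusted p = 0.0562), and Hsd17b10, a later isoleucine enzyme that is also part of mitochondrial ribonuclease P, 0.11 ± 0.24 (adjusted p = 0.753).

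Oxct1, which activates ketone bodies with succinyl-CoA (ENSMUSG00000022186, chr15:4026383-4155344), had 345.4, 366.7 and 494.0 CPM in the lowest, median and highest MIGIRKO library, against 646.0, 635.2 and 658.3 CPM in IRIGFRlox. It fell by 0.74 ± 0.16 (adjusted p = 0.000572), with a gap between the groups.

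The size of these falls depends on how libraries are scaled. The scaling factor averaged 1.23 ± 0.05 in MIGIRKO and 0.876 ± 0.011 in IRIGFRlox (SD, n = 6 and 3), and with library totals alone the median change of all tested genes in MIGIRKO moved by 0.49 to 0.53, and 688 genes were then called lower and 6314 higher. On that scale 10 of the 40 genes were called lower, led by Bckdk at -0.58, Pdhx at -0.53 and Mdh2 at -0.51, and 3 were called higher, namely Bcat2 at 0.75, Pdk1 at 0.54 and Mccc1 at 0.40. Since scaling moves all genes of a comparison by about the same amount, the distance of the 40 from the median of all genes hardly depends on it: their median stood 0.67 below, and 37 of them lay below that median. As a share of raw counts the 40 genes took 0.888% ± 0.043 in MIGIRKO and 0.990% ± 0.069 in IRIGFRlox, and 0.908% ± 0.049 in MIRKO and 1.01% ± 0.05 in IRlox (SD). Per library, the median of the 40 genes against the mean of the own floxed group was -0.82 to -0.53 in MIGIRKO with scaling factors and -0.28 to -0.10 without, so every MIGIRKO library was below 0 on both scales. The IRIGFRlox libraries ran from -0.06 to 0.02 with scaling factors and from -0.08 to 0.04 without, so the gap without them was narrow.

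**Figure D4:**
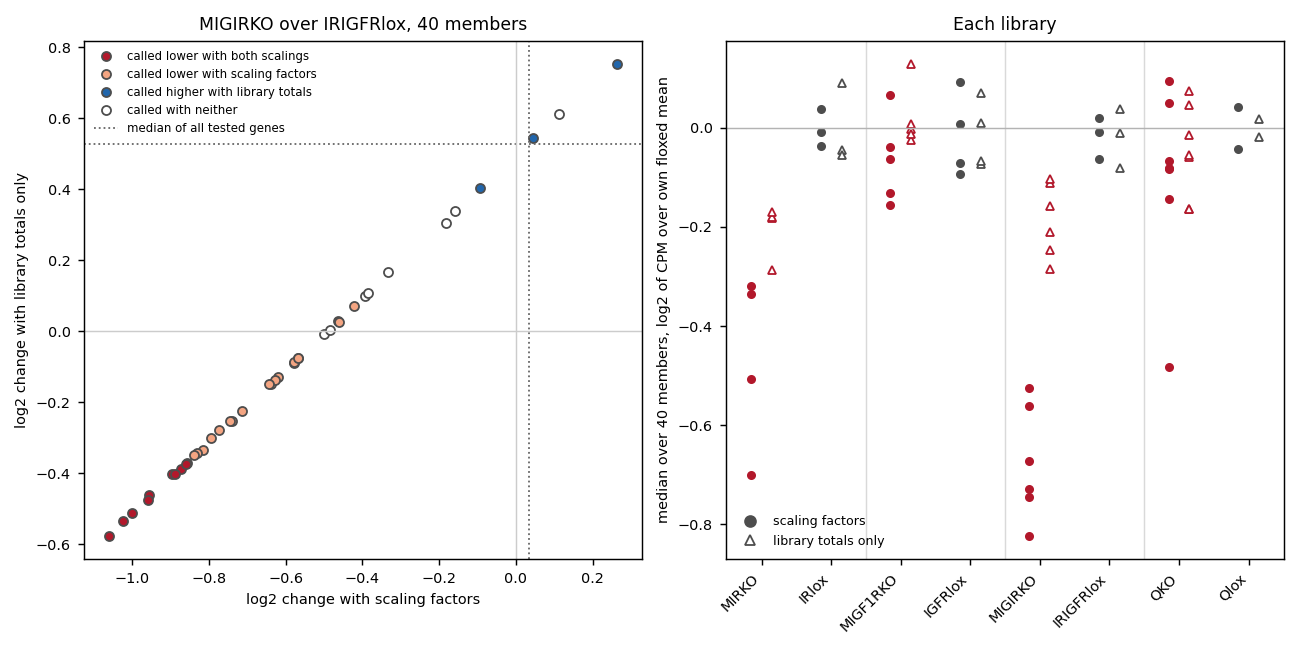
Left, log2 change of the 40 genes in MIGIRKO with scaling factors and with library totals alone, with the all-gene medians as dotted lines. Right, median of the 40 genes in each library relative to its own floxed group on both scales. Every MIGIRKO library lies below 0 on both scales, while IRIGFRlox libraries lie on both sides of 0. Scaling shifts the 40 genes and the all-gene median together.

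Markers of other cell types and of fiber state moved in the same libraries. The 10 muscle fiber markers summed to 71600 to 114100 CPM in MIGIRKO and 187700 to 213100 CPM in IRIGFRlox, and 6 of 10 fell. The adipocyte markers (8 of 8 rose) summed to 405.0 to 1561 CPM in MIGIRKO and 178.5 to 189.9 CPM in IRIGFRlox, and the macrophage and immune markers (8 of 8 rose) to 585.5 to 1596 CPM in MIGIRKO and 176.9 to 253.3 CPM in IRIGFRlox. Of the denervated fiber markers 8 of 9 rose and 1 fell, with sums of 204.2 to 972.0 CPM in MIGIRKO and 88.4 to 97.2 CPM in IRIGFRlox. Of the slow and oxidative fiber markers 3 of 9 fell, of the fibroblast markers 5 of 6 rose, of the Schwann cell markers 4 of 6 rose, of the satellite cell markers 1 of 4 rose, and of the endothelial markers 0 of 7 were called. The part of these shifts in the fall of the 40 genes was not tested.

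Genes of the neighbouring steps, 40 in number and all tested, behaved in a more mixed way in MIGIRKO: 19 fell and 5 rose. Slc25a12, the aspartate-glutamate carrier, had 184.8, 274.3 and 315.9 CPM in the lowest, median and highest MIGIRKO library, against 735.3, 668.9 and 785.6 CPM in IRIGFRlox, and fell by 1.46 ± 0.17 (adjusted p = 1.98e-07). Pdpr, the regulatory subunit of pyruvate dehydrogenase phosphatase, fell by 1.33 ± 0.16 (adjusted p = 3.28e-07), and Bdh1, which oxidises the ketone body 3-hydroxybutyrate, by 2.24 ± 0.29 (adjusted p = 1.71e-06). Those that rose were Slc25a1, the citrate carrier, by 1.97, Bcat1, the cytosolic transaminase, by 1.82, the malic enzyme Me2 by 1.65, the kinase Pdk3 by 1.39 and the cytosolic Idh1 by 0.73 on the log2 scale. Bcat1 and Pdk3 were low, at 6.01 to 10.6 CPM and 2.27 to 5.62 CPM in MIGIRKO, against 1.07 to 3.635 CPM and 0.916 to 2.35 CPM in IRIGFRlox.

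In MIRKO the same steps leaned downward, and 4 genes passed the test. Pdhx had 75.2, 62.3, 56.2 and 50.8 CPM in the 4 MIRKO libraries, against 103.6, 102.7 and 94.8 CPM in IRlox, and fell by 0.72 ± 0.16 (adjusted p = 0.0289). Mdh2 had 450.2, 364.3, 297.6 and 295.2 CPM in MIRKO, against 631.4, 604.1 and 527.0 CPM in IRlox, and fell by 0.74 ± 0.18 (adjusted p = 0.0379). All 4 MIRKO libraries were below all IRlox libraries for both. Fh1 had 145.5, 106.2, 91.8 and 114.6 CPM in MIRKO, against 185.4, 189.4 and 193.4 CPM in IRlox, and fell by 0.73 ± 0.18 (adjusted p = 0.0349). Suclg1 had 168.2, 115.5, 137.6 and 148.2 CPM in MIRKO, against 240.9, 216.1 and 258.2 CPM in IRlox, and fell by 0.74 ± 0.19 (adjusted p = 0.0407). These too did not overlap. Mpc1 had a larger change of -0.83 ± 0.24 but did not pass the test (adjusted p = 0.0751), nor did Dlat at -0.47 ± 0.13 (adjusted p = 0.0632) or Bckdk at -0.69 ± 0.20 (adjusted p = 0.0769). Of the 40 genes 37 lay below 0 and 26 had an unadjusted p under 0.05, beside 6382 and 2345 of all 13646 genes. Among the neighbouring genes Mdh1, the cytosolic malate dehydrogenase, fell by 0.89 ± 0.17 (adjusted p = 0.00883) and Slc25a12 by 0.74 ± 0.19 (adjusted p = 0.0388), and the other 38 were not called. Of the slow and oxidative fiber markers 1 of 9 fell. Denervated fiber markers (4 of 9 rose) summed to 922.2 CPM in MIRKO 4, 175.6 to 192.4 CPM in the other MIRKO libraries and 76.0 to 105.5 CPM in IRlox, and no other marker list had a called gene. Muscle fiber markers nonetheless summed to 89340 to 149000 CPM in MIRKO and 163400 to 191100 CPM in IRlox, immune markers to 540.5 to 1196 CPM in MIRKO and 305.9 to 371.7 CPM in IRlox, and endothelial markers to 350.3 to 450.6 CPM in MIRKO and 499.3 to 500.0 CPM in IRlox, none of which overlapped. The part of these shifts in the changes was not tested. The count of 4 moved both ways with the libraries and settings used, while the median of the 40 genes stayed between -0.50 and -0.34 whichever single MIRKO or IRlox library was left out. The count was 0 without MIRKO 3, MIRKO 4, IRlox 1, IRlox 2 or IRlox 3 (medians -0.39, -0.34, -0.47, -0.44 and -0.40), without MIRKO 4 together with MIGIRKO 6 (-0.34, adjusted p of the 4 genes 0.104 to 0.148), with library totals alone (-0.18), with the runs of library numbers as a block (-0.34) and in a fit to the compared groups only (-0.40). It was 7 without MIRKO 1, 8 by DESeq2, 11 without QKO 5 and QKO 6 and 27 with all 12 floxed libraries as control. These runs are 6 stretches of close numbers in the identifiers of the libraries, and no label calls them a batch. IRlox libraries stood in runs 1, 2 and 3 and MIRKO libraries in runs 2, 4, 5 and 6. The groups shared only run 2, so genotype and run can hardly be told apart in this comparison.

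In MIGF1RKO no member was called by edgeR, DESeq2 or limma-voom, and 5 of the 40 had an unadjusted p under 0.05, beside 1427 of all 13646 genes. The smallest adjusted p was that of Bckdhb, with 11.7, 9.93, 7.57, 10.7 and 12.0 CPM in MIGF1RKO, against 15.6, 15.5, 15.7 and 15.4 CPM in IGFRlox. All MIGF1RKO libraries were below all IGFRlox libraries, yet the log2 change of -0.58 ± 0.18 did not pass over all genes (adjusted p = 0.161). Bckdha had 59.7, 67.8, 58.8, 71.9 and 65.4 CPM in MIGF1RKO, against 107.0, 88.0, 75.9 and 74.6 CPM in IGFRlox, with a log2 change of -0.41 ± 0.18 (adjusted p = 0.375). Dlat lay the other way, with 238.9, 209.1, 192.1, 200.4 and 216.9 CPM in MIGF1RKO, against 187.0, 160.1, 189.8 and 160.6 CPM in IGFRlox (log2 change 0.28 ± 0.12, adjusted p = 0.359). Bckdk, Pdhx and Mdh2, which fell most in MIGIRKO, had 95% intervals that included 0 here. The intervals were -0.41 to 0.18 for Pdhx, -0.24 to 0.49 for Bckdk and -0.47 to 0.19 for Mdh2. Of the 40 genes 3 were below IGFRlox in every MIGF1RKO library without being called, namely Bckdha, Bckdhb and Mccc2, all called lower in MIGIRKO. Dlat was the 1 above IGFRlox in every library. The share of all genes without overlap was not computed for this comparison, so nothing particular to these genes is read from it. None of the 40 neighbouring genes was called. Of the denervated fiber markers 1 of 9 rose and 1 fell, and no other marker list had a called gene.

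In QKO, where FoxO1, FoxO3 and FoxO4 were targeted together with both receptors, no member was called by edgeR, DESeq2 or limma-voom, and 2 of the 40 had an unadjusted p under 0.05, beside 1579 of all 13646 genes. Those 2 were Ogdh, with a log2 change of -0.33 ± 0.14 (adjusted p = 0.363), and Acadsb, with -0.41 ± 0.18 (adjusted p = 0.38). All QKO libraries lay below both Qlox libraries for 2 of the 40 genes, Ogdh and Sucla2, against 5.86% of all tested genes. Ogdh ran from 964.8 to 1566 CPM in QKO and from 1634 to 1681 CPM in Qlox, and Sucla2 from 534.6 to 770.5 CPM in QKO and from 797.4 to 873.4 CPM in Qlox. Pdhx had 66.3, 94.9 and 135.9 CPM in the lowest, median and highest QKO library, against 96.8 and 106.8 CPM in Qlox (log2 change -0.07, 95% interval -0.42 to 0.28). Mdh2 had 420.7, 627.5 and 750.0 CPM in the lowest, median and highest QKO library, against 580.4 and 547.5 CPM in Qlox (log2 change 0.08, 95% interval -0.32 to 0.48). Bckdk had 90.6, 130.9 and 167.2 CPM in the lowest, median and highest QKO library, against 136.8 and 129.1 CPM in Qlox (log2 change 0.02, 95% interval -0.42 to 0.45). QKO libraries thus lay on both sides of Qlox for all 3 genes. Per library the median of the 40 genes was 0.10 to -0.14 in 6 QKO libraries and -0.48 in QKO 6, whose immune markers summed to 2962 CPM, against 198.5 to 261.1 CPM in Qlox. No gene of any marker list was called in QKO, and Chrng, a denervated fiber marker, was at 0 in Qlox. Denervated fiber markers nonetheless summed to 111.9 to 373.3 CPM in QKO and 84.98 to 94.91 CPM in Qlox, without overlap. The sums of the other lists overlapped, immune markers only narrowly, at 260.8 to 2962 CPM in QKO. The part of these shifts in the changes was not tested. Among the neighbouring genes Gpt2, the mitochondrial alanine transaminase, had 288.9, 371.9 and 451.3 CPM in the lowest, median and highest QKO library, against 726.8 and 743.7 CPM in Qlox, and fell by 0.96 ± 0.22 (adjusted p = 0.0255).

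The difference between the QKO and the MIGIRKO change was tested in the same fit. For 10 of the 40 genes the QKO change was higher than the MIGIRKO change, and for 0 lower, against 3.61% of all genes higher and 2.15% lower; 21 of the 40 had an unadjusted p under 0.05, beside 2887 of all genes. The 10 were 2 subunits of the pyruvate dehydrogenase complex, 5 TCA genes, Dbt, Bckdk and Pccb. Suclg1 had the largest difference at 1.14 ± 0.27 (adjusted p = 0.0123): it had 155.9, 209.9 and 273.6 CPM in the lowest, median and highest QKO library, against 183.7 and 168.5 CPM in Qlox, and 107.7, 138.8 and 170.4 CPM in the lowest, median and highest MIGIRKO library, against 210.5, 254.1 and 261.6 CPM in IRIGFRlox. Dlat had the smallest adjusted p, with a difference of 0.79 ± 0.19 (adjusted p = 0.0114): it had 143.6, 187.4 and 203.4 CPM in the lowest, median and highest QKO library, against 170.9 and 160.7 CPM in Qlox. The differences were 0.96 ± 0.23 for Pdhx (adjusted p = 0.014), 0.73 ± 0.18 for Cs (adjusted p = 0.016), 1.08 ± 0.27 for Mdh2 (adjusted p = 0.0144) and 1.08 ± 0.29 for Bckdk (adjusted p = 0.0258). Idh3b, Fh1, Dbt and Pccb differed by 1.01, 1.02, 1.05 and 1.01. Fiber markers differed in the same way (3 of 10 higher, 0 lower) and so did slow and oxidative markers (4 of 9 higher), while 5 of 8 adipocyte, 5 of 6 Schwann cell and 1 of 6 fibroblast markers were lower, and their part was not tested. These differences of changes also hold any gap between the 2 floxed groups. Qlox and IRIGFRlox averaged 236.7 and 294.3 CPM for Idh3b, 144.8 and 185.7 for Fh1, 30.4 and 43.1 for Dbt and 63.1 and 96.8 for Pccb. Among the 10 genes only Pdhx averaged higher in Qlox, at 101.8 and 100.4 CPM. Pccb ran from 44.96 to 85.25 CPM in QKO and from 42.1 to 63.99 CPM in MIGIRKO.

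The median difference over the 40 genes was 0.54, and it was 0.55 without Qlox 1 and 0.59 without Qlox 2, although with 1 Qlox library left, assumed to vary like the other groups, 0 genes were called in either case. With library totals alone the count was 0 and the median difference 0.09, and with the runs of library numbers as a block it was 3 (Dlat, Cs and Suclg1); without QKO 6 the count was 16. Qlox libraries stood in runs 4 and 5 and IRIGFRlox libraries in runs 1, 2 and 6, so these floxed groups shared no run. Among the neighbouring genes 7 differed upward and 1 downward. Bdh1 led with a difference of 2.66 ± 0.47 (adjusted p = 0.00152), and had 24.8, 35.3 and 63.3 CPM in the lowest, median and highest QKO library, against 21.0 and 41.0 CPM in Qlox. Slc25a12 differed by 1.25 ± 0.27 (adjusted p = 0.00653), Pdpr by 1.00 ± 0.25 (adjusted p = 0.0158) and Mdh1 by 0.94 ± 0.25 (adjusted p = 0.0227), and Idh1 was the 1 with a lower change in QKO, at -0.82.

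**Figure D5:**
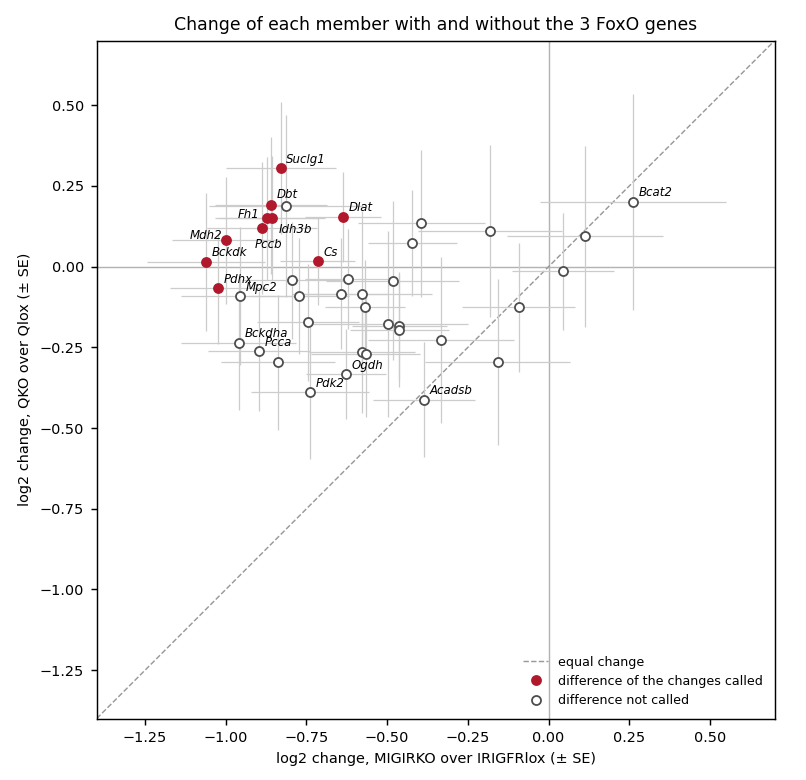
Log2 change of the 40 genes in QKO against Qlox (y axis) and in MIGIRKO against IRIGFRlox (x axis), with a dashed line of equal change; the 10 red genes have a called difference. All 10 lie left of 0 on the x axis and above the line of equal change.

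Between MIGIRKO and MIGF1RKO, the question is what loss of the insulin receptor adds to that of the IGF-1 receptor. The MIGIRKO change was lower for 15 of the 40 genes and higher for 0, against 4.91% of all genes lower and 3.67% higher. Bckdk differed by -1.19 ± 0.26 (adjusted p = 0.00605), Mpc2 by -1.08 ± 0.26 (adjusted p = 0.0103), Dlat by -0.92 ± 0.17 (adjusted p = 0.00196) and Pdhx by -0.91 ± 0.21 (adjusted p = 0.00844). The TCA genes called were Idh3a (-0.94), Suclg1 (-0.94), Fh1 (-0.89), Mdh2 (-0.86), Ogdh (-0.58), Dlst (-0.57) and Cs (-0.55), and the others were Pccb (-0.87), Oxct1 (-0.73), Acad8 (-0.67) and Pdha1 (-0.63). None of the 3 BCKDH subunit genes was called; Bckdhb, with low values in both lines, differed by -0.26 ± 0.26 (adjusted p = 0.546). The count was 9 without any 1 of the IRIGFRlox libraries, without IGFRlox 2, without IGFRlox 3 and with no filter on low counts, and 3 with library totals alone. Of the neighbouring genes 9 differed downward, led by Pdpr at -1.18 ± 0.22 (adjusted p = 0.00251), Slc25a12 at -1.17 and Bdh1 at -2.03 (adjusted p = 0.00407 each) and Mdh1 at -0.95 (adjusted p = 0.00912), and 2 upward, Slc25a1 and Bcat1. This difference uses the same MIGIRKO and IRIGFRlox libraries as the difference from QKO, and the 2 are not independent. Fiber markers were lower in 4 of 10 and slow and oxidative markers in 1 of 9, while adipocyte markers were higher in 5 of 8, immune in 2 of 8, fibroblast in 2 of 6, Schwann cell in 3 of 6 and denervated fiber markers in 2 of 9, and their part was not tested.

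Between MIGIRKO and MIRKO no gene differed in edgeR's test (0.0% of all genes called lower and 0.0% called higher), where 2 of the 40 members, Ogdh and Bckdhb, and 1421 of all genes had an unadjusted p under 0.05. Ogdh had a difference of -0.39 ± 0.19 (adjusted p = 0.452) and Bckdhb of -0.56 ± 0.27 (adjusted p = 0.466). Limma-voom called 0 genes, and DESeq2, whose own filter left 1741 genes with an adjusted p, called 39 genes, none of them among the 40. Without MIRKO 4 and MIGIRKO 6, however, edgeR called 457 of 13466 genes (285 lower and 172 higher), still 0 of the 40, whose median difference was -0.32, against -0.24 with all libraries. The 4 floxed groups were also compared, since the colonies are separate: 0 of the 40 genes and 0.264% of all genes were called by edgeR, and 1 of the 40, Bckdhb, had an unadjusted p under 0.05 (adjusted p = 0.341), beside 1526 of all genes. DESeq2 and limma-voom called none of the 40 either. Of the neighbouring genes only Sdha, a subunit of succinate dehydrogenase, differed between the floxed groups in edgeR's test (adjusted p = 0.0441).

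Ratios of paired genes within a library do not depend on scaling, and 6 were tested in the 4 knockout comparisons by an exact two-sided permutation test on log2 ratios of counts (pseudocount 0.5, 24 tests). None passed (smallest adjusted p = 0.694), but with the smallest p these group sizes allow (0.00794 to 0.0286) no single ratio could pass over 24 tests, so the outcome says nothing on stability. The log2 ratio of Bckdk to Ppm1k averaged 1.44 ± 0.30 in MIRKO (SD, n = 4) and 1.90 ± 0.05 in IRlox (n = 3), with an exact p of 0.0571, where 0.0286 is the smallest p these groups allow. In MIGIRKO the same ratio averaged 1.33 ± 0.38 (n = 6), against 1.95 ± 0.66 in IRIGFRlox (n = 3), with an exact p of 0.119. The log2 ratio of Sucla2 to Suclg2 averaged 4.00 ± 0.13 in MIGIRKO and 3.79 ± 0.20 in IRIGFRlox (exact p = 0.0833, smallest possible 0.0119), and that of Pcca to Pccb -0.96 ± 0.29 in MIGIRKO and -0.99 ± 0.19 in IRIGFRlox (exact p = 0.94).

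Promoter sequences were looked at because so many of the genes were lower together in MIGIRKO. RefSeq windows (GRCm38.p6, at most 250 bases before and 50 after each annotated start) matched 37 of the 40 genes, all but Dbt, Idh3a and Pdp1. They were searched on both strands for 3 motifs, none of which contains another. TNAAGGTCA, for estrogen-related receptors, which drive mitochondrial genes, stood in 0 of 37 windows and in 1.43% of 27025 genes. TGTTTAC, for FoxO factors, stood in 2 of 37 (5.41%), Hibadh and Auh, and in 4.05% of all genes. CCGGAAGT, for GABP, another regulator of mitochondrial genes, stood in 1 of 37 (2.7%), Dlst, and in 4.31% of all genes. With each gene taken at its window of highest GC content, the median was 61.0% for the 37 genes and 53.3% for all genes. The 27025 genes with windows are not limited to those tested in muscle. Shown first are the 3 windows with a match, given 5′ to 3′ on the strand of the gene with the match in capitals, as its reverse complement where it lies on the other strand. Hibadh (chr6:52640301-52640550, minus strand) holds GTAAACA beginning 234 bases before its annotated start. Auh (chr13:52929648-52929927, minus strand) holds it beginning 23 bases past the annotated start, so not upstream of it. Dlst (chr12:85110583-85110840, plus strand) holds ACTTCCGG at its annotated start.
Hibadh: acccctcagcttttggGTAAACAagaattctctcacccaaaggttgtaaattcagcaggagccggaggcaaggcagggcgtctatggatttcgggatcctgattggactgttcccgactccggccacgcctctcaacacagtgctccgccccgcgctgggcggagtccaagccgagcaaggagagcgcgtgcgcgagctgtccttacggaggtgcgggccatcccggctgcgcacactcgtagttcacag
Auh: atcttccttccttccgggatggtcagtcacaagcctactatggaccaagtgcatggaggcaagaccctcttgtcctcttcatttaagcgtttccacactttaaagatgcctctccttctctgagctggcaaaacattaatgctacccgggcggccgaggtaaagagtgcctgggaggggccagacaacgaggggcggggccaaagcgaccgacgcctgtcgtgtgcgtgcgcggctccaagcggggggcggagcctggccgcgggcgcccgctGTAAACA
Dlst: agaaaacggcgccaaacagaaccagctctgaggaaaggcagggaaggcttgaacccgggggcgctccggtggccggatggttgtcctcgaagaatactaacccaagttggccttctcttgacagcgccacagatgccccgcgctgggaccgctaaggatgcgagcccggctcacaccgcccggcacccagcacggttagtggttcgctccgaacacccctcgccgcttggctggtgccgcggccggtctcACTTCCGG

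The other pair shown belongs to Pdhx and Bckdk, which had the smallest adjusted p and the largest fall in MIGIRKO. The window of Pdhx (chr2:103073514-103073763, minus strand) has a GC content of 68.4% and that of Bckdk (chr7:127903823-127904072, plus strand) a lower one, and neither window holds any of the 3 motifs.
Pdhx: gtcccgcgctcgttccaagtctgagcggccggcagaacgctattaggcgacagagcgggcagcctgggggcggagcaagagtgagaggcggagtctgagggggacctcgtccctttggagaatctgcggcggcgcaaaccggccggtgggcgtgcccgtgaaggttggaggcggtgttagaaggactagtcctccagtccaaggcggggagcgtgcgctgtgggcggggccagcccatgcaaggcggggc
Bckdk: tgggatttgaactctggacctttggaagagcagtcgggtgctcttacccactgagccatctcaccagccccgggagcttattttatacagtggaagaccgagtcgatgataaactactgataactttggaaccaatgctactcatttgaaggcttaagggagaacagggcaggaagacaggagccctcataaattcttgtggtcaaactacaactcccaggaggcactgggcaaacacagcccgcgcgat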

How the data were processed

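The deposited file holds raw counts per Ensembl gene, with 1 column for each of the 34 libraries; reads were aligned with STAR to GRCm38.p4 and counted with featureCounts, per the submitters' processing notes, which give no versions, annotation release or strand setting. Symbols and coordinates are from GENCODE M21 (GRCm38), and 45229 IDs matched a symbol. Groups were taken from the labels. In R 4.3.3, edgeR 4.0.16 filtered genes with filterByExpr (13646 of 46071 left), computed trimmed mean of M values (TMM) scaling factors and fitted 1 mean per group to all libraries with the robust quasi-likelihood method; limma 3.58.1, DESeq2 1.42.0, DESeq2 size factors, library totals alone, no filter, CPM over 1 in at least 3 libraries, 6 runs of library numbers as a block, 12 floxed libraries as 1 control, compared groups only, leaving out MIRKO 4 with MIGIRKO 6, and leaving out each library were alternatives, and leaving out QKO 5 with QKO 6 was added after seeing the data. SE is the change over the square root of F. Library totals of 1499025 to 7581198 limit the precision of low genes. Whether the libraries of a group come from separate mice is not stated per library, so p-values measure only the spread between these samples, which may be technical. The fit was tested on simulated data for the 4 knockout comparisons. It recovered 5.97% to 10.4% of changes of 0.5 and 55.2% to 67.2% of changes of 1 on the log2 scale. A count of 0 therefore does not show that changes of such sizes are absent. Ratios (pseudocount 0.5, or 1.0 as an alternative), promoter windows and figures used Python 3.11.15, numpy 2.4.6, pandas 2.3.3, scipy 1.17.1 and matplotlib 3.10.9.

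The 40 genes and all lists were chosen with earlier results of these data known. All 40 may be named; values in every library (lowest, median and highest for groups of more than 5) are given for up to 3 genes of each role with the smallest adjusted p over the 4 knockout comparisons, plus called genes of a comparison, and up to 4 called neighbouring genes per comparison (in MIGIRKO also those that rose, chosen after their values were seen, as were Suclg1 and Bcat2 among the 40). The result of 1 neighbouring gene that this rule names is not reported here.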

Additional observations from a re-analysis of the deposited data

Results flagged for a closer look

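A gap test within groups of 4 to 7 libraries set 1 library apart in 9 of 200 sets of gene and group, where chance gives about 1 in 20, or 10. QKO 6 was low for Dlat (143.6 CPM, others 180.8 to 203.4), Idh3a (725.1, others 1022 to 1244) and Sucla2 (534.6, others 672.6 to 770.5). MIRKO 4 was low for Dbt (20.9 CPM, others 27.5 to 28.2) and high for Auh (24.6, others 15.7 to 16.2), and MIRKO 2 was high for Bckdhb (14.8, others 12.3 to 12.7). MIGF1RKO 1 was high for Ppm1k (65.9 CPM, others 41.2 to 45.5), MIGF1RKO 5 for Hsd17b10 (65.7, others 35.2 to 43.0) and MIGIRKO 3 for Oxct1 (494.0, others 345.4 to 382.4).

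The QKO change was higher than the MIGIRKO change, by a test of the difference itself, for Dlat (0.79), Pdhx (0.96), Cs (0.73), Idh3b (1.01), Suclg1 (1.14), Fh1 (1.02), Mdh2 (1.08), Dbt (1.05), Bckdk (1.08) and Pccb (1.01). The MIGIRKO change was lower than the MIGF1RKO change for Mpc2 (-1.08), Pdha1 (-0.63), Dlat (-0.92), Pdhx (-0.91), Cs (-0.55), Idh3a (-0.94), Ogdh (-0.58), Dlst (-0.57), Suclg1 (-0.94), Fh1 (-0.89), Mdh2 (-0.86), Bckdk (-1.19), Acad8 (-0.67), Pccb (-0.87) and Oxct1 (-0.73). Both sets share the MIGIRKO and IRIGFRlox libraries.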

How the results depend on the processing

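The 29 calls in MIGIRKO were 28 to 36 under the other tests, filters, controls, blocks and fits run, and 25 to 31 with 1 library left out; with library totals alone they were 13, and Ivd (0.0296), Hibch (0.0721) and Hibadh (0.027) changed sign, a shift that follows from the scaling factors. The 4 calls in MIRKO were 8 by DESeq2, 27 with all floxed libraries as control, 11 without QKO 5 and QKO 6, and 0 with library totals, with the runs as a block, without MIRKO 4 and MIGIRKO 6 and in the compared groups only, and 0 to 7 with 1 library left out. In MIGF1RKO and in QKO 1 gene was called when every floxed library served as control, and 0 under the others. The 10 differences between QKO and MIGIRKO were 0 with library totals, 3 with the runs as a block, and 0 to 16 with 1 library left out. The 15 differences between MIGIRKO and MIGF1RKO were 3 with library totals, 9 with no filter, and 9 to 18 with 1 library left out. The counts of 0 between MIGIRKO and MIRKO and between floxed groups stayed 0 in every alternative run. Of 252 recomputed ratio values, which could hardly pass at these group sizes, 0 passed and 30 had the opposite sign. Apart from the scaling shift, the cause of these moves was not tested. No paired analysis was possible because no label pairs mice of different groups. The runs of library numbers, read from the identifiers and not named a batch by any label, served as a block only. Depth limits Auh, Bckdhb and the other low genes most.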
